A study of Mus musculus and Homo sapiens with 10 samples.

Results

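Cytosolic ribosomal protein genes were taken from the mouse embryonic stem cell (mESC) gene table as every row whose symbol was Rpl or Rps followed by a digit, or Rplp0, Rplp1, Rplp2 or Rpsa, after 58 pseudogene rows with -ps names, 10 rows for the Rps6k kinases, and Rpl10l and Rpl39l had been left out. The rule gave 84 genes of 25899 in the mESC table, 50 of the large (60S) subunit, 33 of the small (40S) subunit, and Rps19bp1, which fits the name but encodes a nucleolar protein rather than a ribosomal subunit. All 84 had reads in at least 4 libraries and were among the 14631 genes tested. The same names in upper case, a Y-linked one left out, gave 83 genes of 35720 in the human (hESC) table. The rule uses names and no measured value.

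The mESCs were the E14 line in 2i media (serum-free medium with LIF and inhibitors of MEK and GSK3, which keeps cells in a naive state), sequenced as 4 untreated control libraries and 4 libraries from cells given vitamin C (vitC) at 100 µg/ml for 24 hours, and the question was what vitC changed. Replicates 1 to 4 of both groups carried the culture labels 10, 11, 35B and 35C, so each control had a vitC partner, and cultures 10 and 11 and cultures 35B and 35C were compared as 2 culture sets; the labels give no meaning for these names. The hESCs were primed cells labelled H9 in KSR/FGF medium, a medium that the study's methods pair with H9 NK2 cells carrying doxycycline-inducible KLF2 and NANOG transgenes and not with plain H9, so which of them was sequenced is not settled here. They had 1 untreated control library and 1 library from cells given vitC at 100 µg/ml for 24 hours, both under culture label 43. Both were labelled polyA RNA where the mESC libraries were labelled total RNA. The study's methods name rRNA depletion of total RNA and no polyA selection, so how the hESC libraries were prepared is not settled here. Nothing in the labels states that replicates came from separate thaws or passages, so p-values measure the spread between these cultures only, and every mESC culture is the same line.

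The cytosolic ribosome joins a small subunit, which reads the mRNA, to a large subunit, which forms peptide bonds. Each subunit is built on rRNA from proteins that are mostly present in 1 copy, and cells make these proteins together, partly because most of their mRNAs begin with a run of pyrimidines (the 5′ TOP) through which growth signals set their translation. Several members have a second gene for a closely related protein, and some members also act outside the ribosome: Rpl11 can bind Mdm2 and stabilise p53, and Rps27l is a p53 target in several cell types. Embryonic stem cells grow fast and devote much of their mRNA to this family.

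The starts of the genes on which the results below turn are shown first, because the family is known for the pyrimidine run there. Each line gives 15 bases before and 15 bases from the RefSeq transcript start on the gene's own strand, from GRCm38.p6, with the longest run of C and T in the window in capitals. A RefSeq start may lie some bases away from the start used in these cells. The marked run may also lie before the RefSeq start, as for Rps27l, Rpl11 and Rpl27. By that start such a run is not part of the mRNA, and the counts below include runs of this kind.
Rps27l, chr9:66946071-66946100, plus strand: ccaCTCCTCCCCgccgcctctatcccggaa
Rps27, chr3:90213634-90213663, minus strand: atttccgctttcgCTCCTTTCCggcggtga
Rpl11, chr4:136053379-136053408, minus strand: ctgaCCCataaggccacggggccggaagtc
Rpl36a, chrX:134585639-134585668, plus strand: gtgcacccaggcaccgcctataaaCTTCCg
Rpl13a, chr7:45128731-45128760, minus strand: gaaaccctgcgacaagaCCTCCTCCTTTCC
Rps26, chr10:128626492-128626521, minus strand: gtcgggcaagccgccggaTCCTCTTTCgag
Rpl27, chr11:101442230-101442259, plus strand: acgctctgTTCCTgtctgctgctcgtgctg
Rps6, chr4:86857353-86857382, minus strand: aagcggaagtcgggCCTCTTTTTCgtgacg

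The table held 75 starts for 63 of the 84 genes, the mouse chromosome 18 members set aside. A run of at least 8 C or T letters on the gene's strand lay in 28 of the 75 windows (37.3%), against 12.003% of all 32851 starts in the table. The longest run had a median of 6 bases in the members' windows and 4 in all windows. Rpl11 and Rpl36a, 2 of the genes with the lowest vitC values below, had runs of 3 and 5 bases in these windows, and Rpl13a had 13. Members with and without the 8-base run had median vitC differences of -0.04 and -0.03, which differ by less than the spread of the pair medians.

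Ribosomal protein mRNAs took a similar share of every mESC library. They held between 2.60% and 3.02% of gene reads in the 4 control libraries (2.77% ± 0.18, SD, n = 4) and between 2.59% and 2.86% in the vitC libraries (2.70% ± 0.12, SD, n = 4), and the ranges overlapped. Reads from 60S genes per read from 40S genes lay between 1.27 and 1.31 in controls and between 1.25 and 1.304 with vitC. The libraries held 3354852 to 6921305 gene reads, and apart from Rpl3l each member had 76 to 14587 reads in every library. In the 2 hESC libraries, labelled polyA RNA, members took 6.42% and 6.62% of 15367652 and 17188555 reads. In bulk samples a change in RNA per cell cannot be told apart from a change in the make-up of the culture.

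Levels within the family spread widely. On the scale of normalised reads (reads divided by the library's size factor) per kilobase of the shortest annotated coding transcript, averaged over 8 libraries, high levels were those of Rpl8 at 11343 ± 657 (SD, n = 8), Rpl41 at 8150 ± 951, Rplp1 at 6584 ± 771 and Rpl4 at 6269 ± 358. Rpl41 and Rplp1, and Rplp1 and Rpl4, differed by less than their summed SDs. The lowest were Rpl3l at 1.15 ± 1.02, Rpl29 at 201 ± 33.6, Rps19bp1 at 215 ± 24.2, Rpl34 at 296 ± 18.4 and Rps13 at 358 ± 30.2, of which Rpl29 and Rps19bp1 differed by less than theirs. Rpl3l, the muscle form of Rpl3, had at most 5 reads in any library and Rpl3 itself stood at 1244 ± 56.1. Many of these genes have processed copies that share their sequence, and reads that could belong to a copy may not be counted, so levels between members are uncertain where copies are near-identical. Of the 58 pseudogene rows, 52 had at least 1 read.

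The members with the best known roles lay close together in both groups. Rplp0, the base of the P-stalk that recruits elongation factors, stood at 4795 ± 210 normalised reads in controls and 4909 ± 336 with vitC, and its acidic partners Rplp1 and Rplp2 at 3332 ± 408 against 3239 ± 416 and 1199 ± 61.9 against 1180 ± 69.8 (SD, n = 4 each). Rpsa, which is also known as a laminin receptor, stood at 3357 ± 136 and 3455 ± 229. Rps6, the S6 kinase target, stood at 2214 ± 181 and 2252 ± 86.1. Rps19, mutated in Diamond-Blackfan anaemia, stood at 732 ± 18.7 and 762 ± 22.9, higher with vitC in all 4 pairs but overlapping between the groups. Rpl10, which joins the large subunit late in its assembly, stood at 932 ± 64.2 and 865 ± 54.0, lower in all 4 pairs. Of the 84 members 3 were higher and 11 lower with vitC in all 4 pairs, where 15.4% of all genes were higher and 14.4% lower. Rps27a, made as a fusion with ubiquitin, stood at 928 ± 85.0 and 859 ± 30.2, and the small proteins Rpl39 and Rpl41 at 883 ± 118 against 820 ± 58.7 and 3684 ± 512 against 3439 ± 317.

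None of the 84 genes passed the test for vitC in the comparison of all 4 control with all 4 vitC libraries. The test was limma on the deposited variance-stabilised values, which behave like log2 values of normalised reads but shrink the differences of low genes, with Benjamini-Hochberg adjustment over all genes and a threshold of 0.05. No member was called higher and none lower, where 0.321% of all genes were called higher and 0.0205% lower. At an unadjusted p under 0.05 there was 1 member by limma, Rps27l (1.19% of members, against 7.65% of all genes). The count models edgeR and DESeq2 on recovered reads called 0 members, with 1 and 0 at that unadjusted p. The member differences had a median of -0.03, against -0.002 over all 14631 genes, and ran from -0.21 for Rps27l to 0.09. Of the members, 61 lay below 0 and 23 above. Outside Rpl3l, the 95% intervals of all 83 members lay between -0.42 and 0.30, so a vitC change beyond 0.5 on this scale was outside the interval of each. The vitC and control libraries did not separate fully for any member, against 3.31% of genes with all vitC libraries above and 1.98% with all below.

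More genes passed when each vitC library was set against the control of its own culture. With the replicate block (limma with culture as a term), 931 of all genes were higher with vitC (6.36%) and 650 lower (4.44%), and among the members 0 were higher and 2 were lower, Rps27l and Rpl11. The 2 lower calls are 2.38% of the members. At an unadjusted p under 0.05 there were 2 members higher and 12 lower. The share of all genes at that unadjusted p is not given here, but it is at least the 6.36% and 4.44% called after adjustment. A count model gave a similar picture, since edgeR on the recovered reads with the block called 4 members lower, where 6.07% of all genes were called lower, namely Rps27l, Rpl11, Rpl13a and Rpl36a, and 0 higher (2 at an unadjusted p under 0.05).

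Rps27l gave the clearest vitC difference. It encodes a close relative of the 40S protein Rps27, lies on chr9:66946086-66949516 on the plus strand of GRCm38, and its start is shown above. It had 792, 830, 874 and 979 normalised reads in control cultures 10, 11, 35B and 35C. The vitC partners had 620, 700, 757 and 863. Each vitC library lay below its own control, although the highest vitC value exceeded 2 of the control values. The pair differences were -0.30, -0.21, -0.18 and -0.16, and the blocked difference was -0.21 ± 0.04 (SE, 95% interval -0.30 to -0.13, limma adjusted p = 0.00178), against an adjusted p of 0.639 without the block. The call held with each pair left out of the blocked limma fit, with adjusted p between 0.00624 and 0.0198. On the count scale the edgeR log2 fold change was -0.25 (edgeR adjusted p = 0.00018).

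Its parent Rps27, a zinc-finger protein of the small subunit, did not fall with it by the test. Rps27 had 229, 238, 213 and 274 normalised reads in the controls and 229, 234, 200 and 247 with vitC (block adjusted p = 0.597, limma). The log2 ratio of Rps27l to Rps27, with a pseudocount of 0.5, was 1.87 ± 0.12 in controls and 1.68 ± 0.22 with vitC (SD, n = 4), lower in 4 of 4 pairs. An exact two-sided permutation test over the 70 ways of splitting the libraries gave p = 0.257, adjusted to 0.786 over the 5 paralogue pairs, and an exact sign-flip test over the 4 pairs gave p = 0.125, the smallest it can give. The sign-flip test cannot pass 0.05 with 4 pairs and the other ignores the pairing, so neither says whether Rps27l fell by more than its parent.

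Rpl11, a 60S protein that forms a complex with Rpl5 and 5S rRNA, fell in 3 of 4 pairs. The controls had 515, 413, 444 and 564 normalised reads in cultures 10, 11, 35B and 35C and the vitC libraries 395, 445, 365 and 440. Culture 11 went the other way. The blocked difference was -0.18 ± 0.06 (SE, limma adjusted p = 0.0406), and the call was lost when culture 10, 35B or 35C was left out (limma adjusted p = 0.233, 0.121 and 0.2004) and was stronger without culture 11 (0.00185).

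Rpl36a, a 60S protein whose gene is X-linked, and Rpl13a, a 60S protein known for silencing certain mRNAs when released, were called lower by edgeR with the block and not by limma with the block. Quantile normalisation with the block called 4 members lower, Rps27l, Rpl11, Rpl36a and Rpl4. Limma with the block and without culture 11 called 7, Rpl13a and Rpl36a among them. The shares of all genes called lower by these fits are not given here. The counts therefore do not say whether members were called more often than other genes. Rpl36a had 351, 289, 234 and 342 normalised reads in controls and 297, 286, 208 and 255 with vitC (limma block adjusted p = 0.063, edgeR 0.0275). Rpl13a had 2592, 2285, 2408 and 3036 in controls and 2208, 2340, 2317 and 2493 with vitC (limma block 0.0638, edgeR 0.0135). In both genes the largest gap was in culture 35C, the control of which was the highest of the 8 libraries for Rpl13a.

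**Figure D1:**
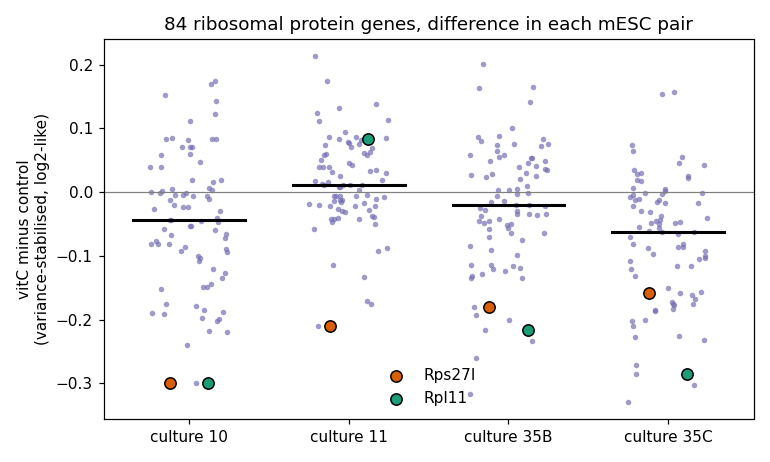
Difference between the vitC and the control library of each culture for the 84 genes, on the variance-stabilised log2-like scale, with 1 point a gene and a black line at the median. The medians are -0.04, 0.01, -0.02 and -0.06 in cultures 10, 11, 35B and 35C, and Rps27l (orange) is below 0 in all 4 while Rpl11 (green) is above 0 in culture 11.

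**Figure D2:**
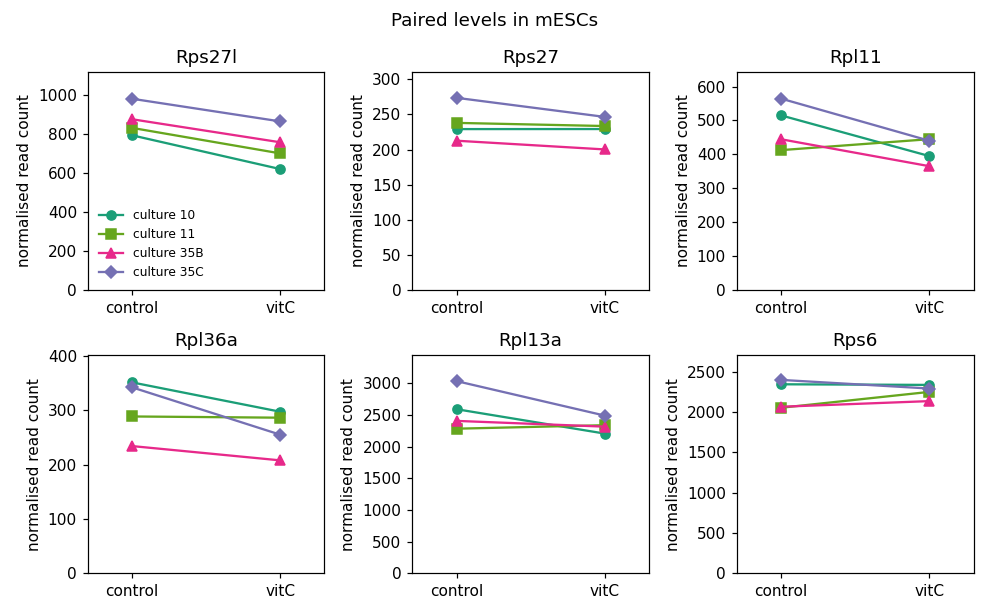
Normalised read counts of 6 ribosomal protein genes in control and vitC libraries, with 1 line for each culture and axes that start at 0. All 4 lines fall for Rps27l, 3 of 4 fall for Rpl11, and Rps6 shows lines in both directions.

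The other close relatives did not move by the test. Rpl22l1, the paralogue of the RNA-binding protein Rpl22, stood at 535 ± 24.1 and 523 ± 64.4 normalised reads (SD, n = 4) and Rpl22 at 1322 ± 143 and 1250 ± 132. Rpl36al stood at 586 ± 96.1 and 542 ± 62.9, and Rpl7l1, a nucleolar relative of Rpl7, at 1257 ± 66.9 and 1217 ± 102, while Rpl7 stood at 3580 ± 327 and 3574 ± 315. The row Rps4y2, which RefSeq names Rps4l and lists as a transcribed pseudogene close to the X-linked Rps4x, stood at 2155 ± 166 and 2303 ± 305. Its reads and those of Rps4x (3554 ± 175 and 3632 ± 216) may be shared, so both are uncertain. Adjusted p-values of the other 4 log2 ratios of paralogue to parent were 0.786 or 0.8286 by the exact permutation test. The next smallest p-values after Rps27l and Rpl11 were those of Rps13 (-0.11 ± 0.06, limma adjusted p = 0.740), Rpl27a (-0.10 ± 0.06, 0.772) and the barely detected Rpl3l (-0.13 ± 0.08, 0.783).

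Some of the family differed between culture sets, in a smaller share than of all genes, and mostly upward in cultures 35B and 35C. Control and vitC values of each culture were averaged, and the 2 cultures 35B and 35C were compared with the 2 cultures 10 and 11 by limma. In cultures 35B and 35C, 9 members were higher (10.7% of members, where 14.7% of all genes were called higher) and 1 was lower (1.19%, against 18.1%). The member differences had a median of 0.04, against -0.01 over all genes, and ran from -0.33 to 0.28; differences beyond 0.2 were found for 10.7% of members and 27.9% of all genes. The 8 libraries separated fully by set for 16 members upward and 1 downward, against 15.3% and 16.8% of all genes, so the upward share was near the background and the downward share below it. RNAs that lack a poly(A) tail, mostly histone mRNAs, were higher in 35B and 35C for 28 of 29 genes tested (median 0.38), and rRNA took 59.99% to 63.1% of repeat counts there against 42.0% to 51.5% in cultures 10 and 11. Their part in these differences was not tested.

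Rps26 was the 1 member lower in cultures 35B and 35C. It encodes a 40S protein that contacts mRNA upstream of the start codon. It had 1683 and 1716 normalised reads in control and 1845 and 1504 in vitC libraries of cultures 10 and 11, and 1155 and 1479 in control and 1348 and 1297 in vitC libraries of cultures 35B and 35C. The sets did not overlap, and the difference was -0.33 ± 0.07 (SE, limma adjusted p = 0.00265). The vitC difference of the same gene had opposite signs between cultures, with 2 of 4 pairs lower.

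The 9 members higher in cultures 35B and 35C came from both subunits. The 60S genes were Rpl17 (312 ± 8.89 normalised reads in cultures 10 and 11 and 408 ± 51.1 in 35B and 35C, SD over 4 libraries, limma adjusted p = 0.00343), which lines the peptide exit tunnel, Rplp1 (2963 ± 117 and 3608 ± 233, 0.00696), Rpl27 (497 ± 27.6 and 600.1 ± 23.5, 0.0138), Rpl7 (3319 ± 105 and 3835 ± 133, 0.0243) and Rpl19 (924 ± 77.7 and 1150 ± 160, 0.0248). Among the 40S genes were Rps27l (735 ± 94.6 and 868 ± 90.9, 0.0291), Rps25 (1078 ± 21.0 and 1249 ± 99.3, 0.0381) and the uncertain Rps4y2 (2037 ± 85.4 and 2422 ± 171, 0.0106). The sets did not overlap for Rpl17, Rplp1, Rpl27, Rpl7, Rps25 and Rps4y2, and did overlap for Rpl19 and Rps27l. For Rpl19 the 35C libraries (1329 and 1239) stood above the 35B libraries (1032 and 1001), which lay near the culture 10 control (1040).

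These differences depended on single cultures. With only 2 cultures a set, leaving 1 culture out left 1 culture in its set, so only effect sizes are given for those fits. The median member difference was 0.06, 0.02, 0.11 and -0.02 without culture 10, 11, 35B and 35C. Over the same 4 fits Rps26 lay between -0.39 and -0.26, Rpl17 between 0.22 and 0.34, and Rps4y2 between 0.19 and 0.28. Some called members ranged more widely, such as Rpl19 (0.12 to 0.43), Rps25 (0.11 to 0.27) and Rps27l (0.13 to 0.29).

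**Figure D3:**
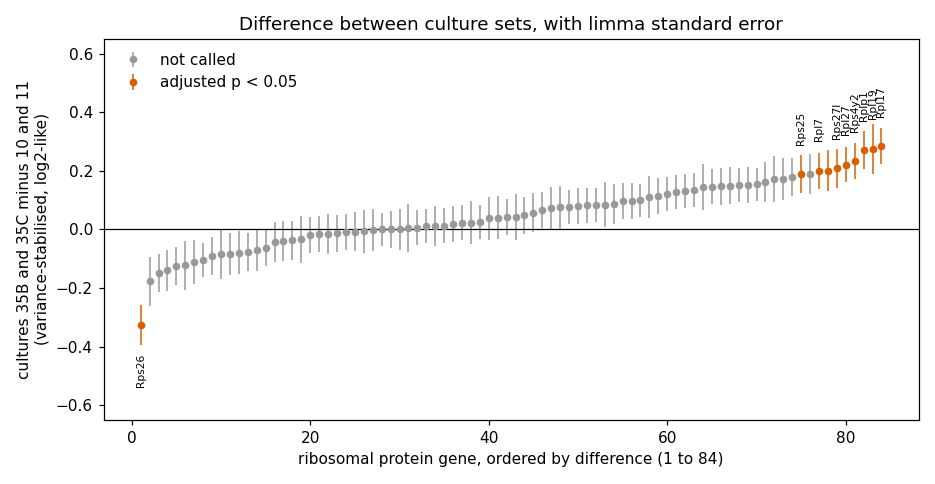
Difference between cultures 35B and 35C and cultures 10 and 11 for each of the 84 genes, with limma standard errors, on the variance-stabilised log2-like scale and ordered by size. The 10 genes past an adjusted p of 0.05 are orange, with Rps26 at -0.33 alone on the low side and Rpl17 at 0.28 the highest.

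Other ribosome genes also differed between the culture sets. Of 76 mitochondrial ribosomal proteins, which build the separate ribosome of mitochondria, 37 were higher in 35B and 35C and 0 were lower (median 0.17, limma, with 48 and 0 at an unadjusted p under 0.05 and 40 and 0 called by edgeR), among them Mrps24 (200 ± 10.6 and 331 ± 21.0 normalised reads) and Mrpl30 (216 ± 7.55 and 327 ± 6.72). Of 43 ribosome biogenesis genes, 12 were higher and 2 lower (median 0.08), with Nhp2, a box H/ACA snoRNP protein, at 0.42 ± 0.07 (SE) and the rRNA processing factor Utp20 at -0.25 ± 0.07. Of 13 genes for transcription of rDNA, 1 was higher (Myc, 0.20 ± 0.06) and 1 lower (Polr1a, the large subunit of RNA polymerase I, -0.29 ± 0.06). Other mRNAs known to carry a 5′ TOP went both ways, with 3 of 20 higher, such as Eif4a2 (0.40 ± 0.07), and 5 lower, such as Pabpc1 (-0.69 ± 0.07) and the elongation factor Eef2 (-0.29 ± 0.07). Fau, a ribosomal protein gene that the name rule misses and whose product is made as a fusion with a ubiquitin-like protein, passed in neither direction (0.11 ± 0.07).

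The same lists had few calls for vitC. Taken with the RNAs that lack a poly(A) tail, these lists held 182 genes. Without the block limma called 0 of them (2 at an unadjusted p under 0.05), as did edgeR and DESeq2. With it, 2 of 20 other 5′ TOP mRNAs were higher (Eef2 and Pabpc1, 0.11 ± 0.03 each) and 1 lower (Npm1, -0.15 ± 0.03). Among ribosome biogenesis genes Npm1 and Nop58 (-0.15 ± 0.03) were lower and none was higher. Of the mitochondrial ribosomal proteins 1 of 76 was lower, and of the rDNA transcription genes 1 of 13 was higher (Polr1a, 0.11 ± 0.03, limma adjusted p = 0.0499). Beside these, 23 of 29 RNAs without a poly(A) tail were lower with vitC under the block (median -0.16), and its part in the member values was not tested. Mitochondrially encoded genes were listed at 0 in all 13 rows.

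**Figure D4:**
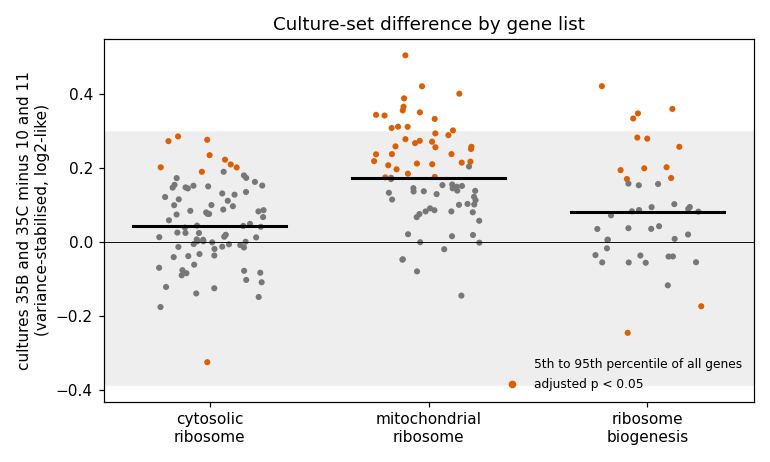
Difference between cultures 35B and 35C and cultures 10 and 11, on the variance-stabilised log2-like scale, for 84 cytosolic ribosomal protein genes, 76 mitochondrial ribosomal proteins and 43 ribosome biogenesis genes, with medians as black lines and the band from the 5th to the 95th percentile of all genes in grey. Genes with an adjusted p under 0.05 are orange, and the medians are 0.04, 0.17 and 0.08.

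Sums of pluripotency markers were high in every library, though not every marker was, and many of them differed between culture sets. Naive pluripotency markers summed to between 19099 and 23630 normalised reads, and core pluripotency markers to between 14016 and 17448. Fibroblast markers summed to 36.7 to 94.2 and endoderm markers to 10.7 to 30.7, each with some defining markers at 0 (1 of 9 and 2 of 8). Mesoderm and neural markers summed to between 601 and 822, with 1 at 0, and 1 of 8 tested was higher and 1 lower in cultures 35B and 35C (Tubb3, 0.56 ± 0.07, and T, -1.11 ± 0.07). In the same comparison, core pluripotency markers had 4 of 7 higher and 1 lower (such as Pou5f1 at 0.42 ± 0.06 and Sox2 at -0.35 ± 0.07) and naive markers 2 of 10 higher and 4 lower (such as Nr0b1 at 0.64 ± 0.06 and Dppa3 at -0.96 ± 0.08). Fibroblast markers had 1 of 4 tested higher (Thy1, 0.84 ± 0.07) and 2 lower (such as Col1a2, -0.96 ± 0.08), and endoderm markers 1 of 5 higher and 1 lower. The part of these markers in the culture-set values of the ribosomal protein genes was not tested. With vitC, limma with the block called 3 of 7 core markers lower (Nanog -0.25 ± 0.04, Pou5f1 -0.12 ± 0.03 and Lin28a -0.11 ± 0.03) and none higher, and of 10 naive markers 3 higher (Klf5 0.17 ± 0.04, Tfcp2l1 0.11 ± 0.03 and Dppa3 0.30 ± 0.06) and 2 lower (Zfp42 -0.13 ± 0.04 and Klf2 -0.13 ± 0.04).

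The vitC response of the members was not shown to differ between culture sets. The interaction term was past the threshold for 0 members, where 0.0889% of all genes passed (limma), and edgeR on the recovered reads also gave 0. By limma 4 members had an unadjusted p under 0.05 (4.76%, against 7.34% of all genes). The smallest of these was for Rpl3l, which had 0 to 5 reads in each library. For Rps27l the pair differences were negative in both sets.

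In hESCs most members lay slightly higher in the vitC library. Since there was 1 library a condition, no test was possible, and the intervals below are exact conditional binomial intervals at 95% that cover counting error only. Over the 82 members with at least 10 reads in the 2 libraries together, the log2 ratio of vitC to control had a median of 0.05, against 0.005 over 15985 genes, with 59 above 0 and 23 below. Apart from the thinly read RPS18, the members reported here lay between -0.10 and 0.17. Intervals were above 0 for 46 members, below 0 for 9 and held 0 for 27. The same counts over all genes are not given here. Members had a median of 10979 reads in the control library, and at that depth even a small ratio can leave 0 outside its interval. These counts therefore do not say whether the members differed from other genes.

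RPS9 and RPS18 had 24 and 27 and 51 and 84 reads, far under the other members, of which the lowest had 862 reads in the control. Mouse Rps9 and Rps18 were well read, with means of 3441 and 1499 normalised reads in cultures 10 and 11. Reads that could belong to a near-identical copy may not be counted here either, which was not tested. Low counts of these genes thus need not mean little mRNA. RPL3L had 0 reads in both libraries, which allows up to 3 reads in each. The 3 largest ratios upward among members with at least 100 reads were RPL36A (0.17, 0.12 to 0.22), RPL11 (0.14, 0.11 to 0.17) and RPL32 (0.13, 0.09 to 0.17), and low ratios were those of RPL38 (-0.10, -0.15 to -0.05) and RPS6 (-0.07, -0.10 to -0.04). RPS27L gave 1838 and 2047 reads (-0.02, -0.11 to 0.07) and RPS27 9912 and 11597 (0.05, 0.01 to 0.09). RPS26 gave 4403 and 4790 (-0.06, -0.12 to 0.003). RPL36A and RPL11, lower with vitC in mESCs under a block, thus had ratios above 0 in this pair. The lines, media and RNA labels also differ and were not compared by a test.

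**Figure D5:**
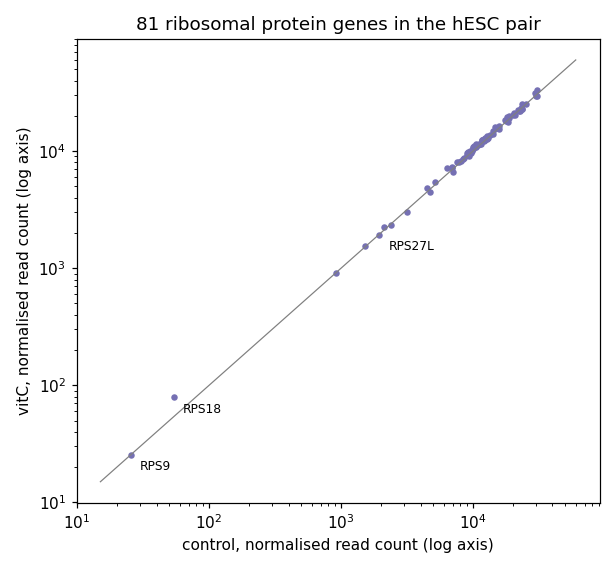
Normalised read counts of 81 ribosomal protein genes in the control (x) and vitC (y) hESC libraries on log axes, with the line of equal values. RPS9 and RPS18 lie at the low end, and the others follow the line.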

How the data were processed

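RNA was sequenced from 8 mESC and 2 hESC libraries. The authors trimmed reads with Trim Galore, mapped them to mm10 or hg38 and counted genes and repeats with SQuIRE, and deposited log2-like variance-stabilised values (DESeq2) per gene and expected counts per repeat subfamily. From the deposited log2 values the whole reads were recovered by inverting the transformation (100% of 116385 mESC values above the lowest within 0.1 of a whole number). Expected counts as deposited served only for the rRNA share. No per-sample column was left unused (0).

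Differences were tested with limma 3.58.1 in R 4.3.3 (eBayes with trend) on genes with a read in 4 or more libraries. Alternatives used edgeR 4.0.16 and DESeq2 1.42.0 on recovered reads, quantile normalisation, other filters, and fits without each library. Exact tests used SciPy 1.17.1. Culture labels pair control and vitC libraries. Deviations from group means correlated at 0.626 to 0.765 between a control and its own vitC partner. For each control this was above its own highest value with another number, which was 0.574 to 0.665. Totals of 3354852 to 6921305 reads limit the precision of low genes in mESCs. The mESC intervals come from the limma standard error, which uses the spread between libraries, and the hESC intervals cover counting error only. Gene coordinates came from the GENCODE annotation of GRCm38 and start sequences from RefSeq.

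Members named were those past the threshold, or the 5 smallest p-values where fewer than 5 passed, the 5 highest and 5 lowest levels, the P-stalk, paralogue pairs and a few well-known genes; Rpl13a, Rpl36a, Rpl34, Mrps24, Mrpl30 and the list genes named were chosen after their values were seen. Members and lists were chosen with earlier results of these data known. The fits were tested on simulated data. Counts and medians cover every member, but some genes are not reported here.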

Additional observations from a re-analysis of the deposited data

Results flagged for a closer look

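Named members were searched for a library far from the other 3 of its group (Dixon's ratio above its 95% critical value, which chance passes in about 1 of 20 groups, with 72 groups searched) and for vitC differences of opposite sign in every culture of the 2 sets. Rpl39 was high in the vitC library of culture 35C, at 10.0 on the variance-stabilised scale (908 normalised reads, the other vitC libraries 788 to 793). Rpsa was low in the control library of culture 35B, at 11.7 (3155 normalised reads, the other controls 3410 to 3439). The vitC difference was above 0 in cultures 10 and 11 and below 0 in 35B and 35C for Rpl22l1 (difference of the responses -0.17, limma adjusted p = 0.692), Rpl3 (-0.079, 0.851) and Rpl3l (-0.39, 0.533, with at most 5 reads a library); the interaction term passed for none of them.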

How the results depend on the processing

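No called gene changed direction, but both median differences changed sign without 1 library or culture. For vitC in mESCs, members called higher stayed at 0 in every fit, while members called lower were 0 without pairing and 2 with the replicate block, 4 with edgeR and the block and 4 with quantile normalization and the block. Leaving out single libraries or pairs, the pairs being an alternative chosen after seeing the data, gave 0 to 7 members lower, the 7 without culture 11 under the block, and a median difference of -0.0568 to 0.0102, the latter without the control of culture 35C. The replicate block left Rps27l at -0.21 and Rpl11 at -0.18. For culture sets, control libraries alone gave 2 members higher, vitC libraries alone 3 higher and 2 lower, 8 libraries with a treatment term 24 higher and 3 lower, and edgeR on summed reads 14 higher, against 9 and 1. Leaving out each culture gave 0 to 20 higher, 0 to 7 lower and a median of -0.02 to 0.11, where the fit without culture 35C gave 2 higher and 7 lower and the negative median. The interaction gave 0 members in every fit. The hESC median ratio moved by less than the counting interval under every alternative. The cause of these changes was not tested. Depth and 4 cultures limit all of this, and size factors assume that most genes are stable.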
